A study of Mus musculus with 24 samples.

Results

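The 40 genes described here encode the machinery that copies nuclear DNA. They were taken by gene symbol from a count table of 54532 mouse genes, and all 40 were found and passed the filter on low counts. Bulk RNA sequencing was done on 24 mouse pancreatic tumour samples collected on day 24, in 4 groups of 6. The controls received PBS, a saline buffer, and the treated groups are labelled GEM, IGEL and LIGEL. The labels do not spell out these abbreviations, nor the strain, age or tumour model of the mice, nor a dose. The series title speaks of losartan priming followed by a nanocarrier for chemotherapy and immunotherapy, and no treatment is assigned to a group here beyond its label. The sample titles say muscle while the tissue field says pancreatic tumour. The 10 skeletal muscle markers summed to no more than 0.0342% of counts in each library, and 6 of the 10, among them Acta1 and Ckm, had no read in at least 1 library. The labels do not say that each library came from its own animal, so p-values measure the spread between these libraries, which may be technical in part.

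A cell prepares its origins of replication before S phase. The origin recognition complex, with Cdc6 and Cdt1, loads the ring of Mcm2 to Mcm7 onto DNA, and geminin (Gmnn) blocks Cdt1 once replication has begun. Cdc45 and the GINS complex then turn the ring into an active helicase, RPA covers the exposed single strands, and DNA polymerase alpha with primase lays down primers. The clamp loader RFC places the PCNA ring, which tethers polymerases delta and epsilon, and Fen1 and Lig1 trim and join the Okazaki fragments. Most of these genes are transcribed towards S phase under E2F factors, which the retinoblastoma family holds back in resting cells. In bulk tissue their messenger RNA rises with the share of cycling cells. Fewer cycling cells and less of these messenger RNAs per cell cannot be told apart in these data.

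Promoters are shown first, because E2F binding words are known features of these genes and can be read from the sequence. RefSeq entries of mouse build GRCm38.p6, running from 250 bases before to 50 after a gene's start, exist for 31 of the 40 genes (36 promoters of 300 bases). The words TTTCCCGC, TTTGGCGC, TTTCGCGC and TTTGCCGC were searched on both strands. At least 1 of them stood in 13 of the 36 promoters (36.1%), against 2.26% of all 32851 promoters in the RefSeq table. Those 13 promoters belong to 13 genes: Cdc6, Cdt1, Gins3, Lig1, Mcm3, Mcm5, Mcm6, Mcm7, Orc1, Pola1, Pold1, Pole2 and Rfc3. The words formed 17 runs, overlapping words counted as 1, and 12 runs were centred between 100 bases before and 50 after the start. The word CCAAT stood in 55.6% of the 36 promoters and in 37.4% of all, and a CHR word (TTTGAA or TTCGAA, the element of many genes expressed late in the cycle) in 19.4% and 19.2%. A match is a description of letters and shows no binding.

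Orc1 is shown as the gene with an E2F word that had the smallest p of the 40 genes in each comparison with PBS over all 24 libraries. The promoters of 4 subunits of the MCM2-7 ring are shown beside it, chosen by their role after the words had been found. Each is written 5′ to 3′ on the gene's own strand of GRCm38.p6, with the E2F words in capitals.
Orc1, chr4:108579204-108579503, plus strand: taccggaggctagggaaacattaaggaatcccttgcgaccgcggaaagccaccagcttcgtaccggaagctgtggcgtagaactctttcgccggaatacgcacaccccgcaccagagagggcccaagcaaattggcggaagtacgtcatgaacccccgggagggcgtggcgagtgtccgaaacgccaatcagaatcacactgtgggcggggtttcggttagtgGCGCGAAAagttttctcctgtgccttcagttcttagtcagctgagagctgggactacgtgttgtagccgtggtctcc
Mcm3, chr1:20820263-20820562, minus strand: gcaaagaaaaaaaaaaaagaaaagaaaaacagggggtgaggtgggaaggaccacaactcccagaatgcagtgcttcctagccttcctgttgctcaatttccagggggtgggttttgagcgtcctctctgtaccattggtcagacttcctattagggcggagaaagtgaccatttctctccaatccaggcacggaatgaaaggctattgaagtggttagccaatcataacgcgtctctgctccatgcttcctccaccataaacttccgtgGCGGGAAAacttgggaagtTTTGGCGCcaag
Mcm5, chr8:75109259-75109558, plus strand: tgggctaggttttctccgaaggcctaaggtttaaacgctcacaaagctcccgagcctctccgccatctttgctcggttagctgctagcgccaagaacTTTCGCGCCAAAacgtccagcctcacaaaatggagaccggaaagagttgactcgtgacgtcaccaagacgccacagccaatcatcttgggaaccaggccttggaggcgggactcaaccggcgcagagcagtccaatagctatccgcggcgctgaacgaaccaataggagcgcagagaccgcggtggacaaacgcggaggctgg
Mcm6, chr1:128359656-128359955, minus strand: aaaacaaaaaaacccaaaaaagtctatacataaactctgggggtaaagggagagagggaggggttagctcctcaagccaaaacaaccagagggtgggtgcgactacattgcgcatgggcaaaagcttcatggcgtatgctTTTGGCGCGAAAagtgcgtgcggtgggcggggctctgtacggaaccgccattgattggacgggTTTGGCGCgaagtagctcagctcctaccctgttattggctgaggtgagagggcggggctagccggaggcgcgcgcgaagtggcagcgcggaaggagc
Mcm7, chr5:138171834-138172133, minus strand: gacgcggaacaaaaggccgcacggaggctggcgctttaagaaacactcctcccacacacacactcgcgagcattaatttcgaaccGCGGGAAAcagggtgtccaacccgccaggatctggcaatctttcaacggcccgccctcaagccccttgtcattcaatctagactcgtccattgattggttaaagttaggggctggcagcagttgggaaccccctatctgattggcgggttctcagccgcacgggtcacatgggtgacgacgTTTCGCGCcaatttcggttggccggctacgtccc
In Mcm5 and in Mcm6 a pair of words on opposite strands overlapped into a run of 12 bases. Orc1 held a single word, which began 27 bases before the start.

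Library totals ranged from 27.1 to 40.5 M counts (M, counts in units of 1e6). PBS replicate 5 stood apart. Transcripts of 20 acinar genes, which mark the enzyme-secreting cells of the pancreas, took 39.1% of its counts and 0.334% to 5.67% in the other 5 PBS libraries. Its total was the lowest of the 24, and so was its composition factor, 0.548. A further 6 libraries, GEM replicates 1 to 3, IGEL replicate 1 and LIGEL replicates 1 and 2, come from count columns named A1, A2 or A3, and the rest from columns A7 to A24. The labels do not say what these names mean, and no PBS library is among the 6. Results are given for all 24 libraries and without PBS replicate 5, and the A7 to A24 libraries are also set apart.

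The replication genes were low together in PBS replicate 5. It was the lowest of all 24 libraries for 38 of the 40 genes, with Gmnn and Rpa3 as the exceptions. Its log2 CPM lay below the mean of the other 5 PBS libraries by 0.67 (Rpa3) to 3.80 (Cdc6), with a median of -2.05 over the 40 genes. The summed level of the 40 genes was 571 CPM (counts scaled to a library of 1e6, with a factor for composition) in that library and 1799 CPM in PBS replicate 1. PBS replicates 2, 3, 4 and 6 held 2864 to 3228 CPM. PBS replicate 1 was the lowest of the other 5 PBS libraries for 40 of 40 genes, and its acinar share was 5.67%. In GEM the sums ran from 1834 to 3036 CPM, in IGEL from 1917 to 2329 and in LIGEL from 1841 to 2424. The highest treated sum was that of GEM replicate 4, which was the highest GEM library for 38 of 40 genes.

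**Figure D1:**
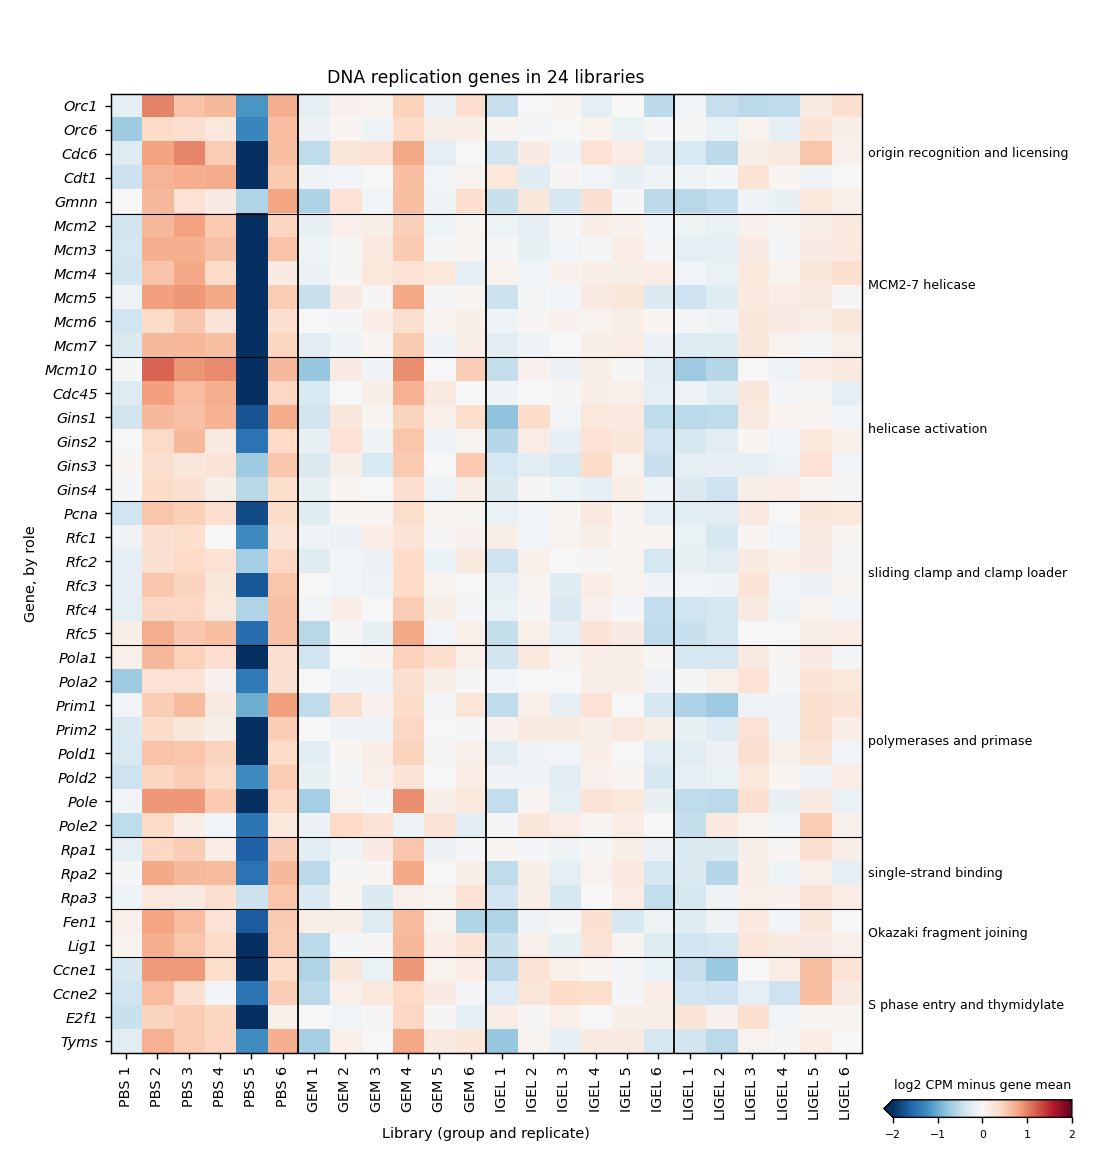
Log2 CPM of the 40 replication genes (rows, grouped by role) in the 24 libraries (columns, by group and replicate), each gene minus its own mean over the 24. Colours stop at 2 in either direction. PBS replicate 5 is the lowest column for 38 of 40 genes, and the columns with the 5 highest summed levels, 2864 CPM or more, are PBS replicates 2, 3, 4 and 6 and GEM replicate 4.

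With all 24 libraries the replication genes were mostly somewhat lower in the treated groups than in PBS, and no gene passed the test. The median log2 fold change of the 40 genes was -0.10 in GEM, -0.27 in IGEL and -0.22 in LIGEL. Over all 19253 genes tested it was -0.02, -0.02 and -0.03. Values below 0 were found for 32 of 40 genes in GEM (53.5% of all genes), 33 in IGEL (52.9%) and 34 in LIGEL (53.5%). The edgeR quasi-likelihood test with Benjamini-Hochberg adjustment called 0 of 40 in each, and 0% of all genes. At an unadjusted p under 0.05 it found 0 lower replication genes in GEM (2.89% of all genes were lower at that level), 1 in IGEL (9.25%) and 1 in LIGEL (14.2%), Orc1 in both. DESeq2 called 0 of 40 in each comparison (0%, 0.24% and 6.42% of all genes). Limma voom with quality weights, which gave PBS replicate 5 a weight of 0.0778 and PBS replicate 1 a weight of 0.249, called 0 in GEM (0.327% of all genes), 11 in IGEL (1.98%) and 15 in LIGEL (3.81%), all lower.

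With PBS replicate 5 left out, nearly all of the genes were lower in every treated group, again with no call. The median log2 fold change was -0.29 in GEM, -0.44 in IGEL and -0.42 in LIGEL, and between -0.02 and 0.00 over all 19525 genes then tested. Lower values were found for 39 of 40 genes in GEM (53.2% of all genes), 39 in IGEL (50.7%) and 38 in LIGEL (51.9%). EdgeR called 0 of 40 in each, with 0% of all genes called in GEM, 0.0922% in IGEL and 0.886% in LIGEL. At an unadjusted p under 0.05 it found 14 genes lower in GEM (3.55% of all genes), 30 in IGEL (7%) and 26 in LIGEL (9.97%), and 0 higher in each. The smallest adjusted p was 0.841 in GEM (Mcm7), 0.108 in IGEL (Orc1) and 0.0698 in LIGEL (Mcm10). DESeq2 without that library called 0, 6 and 6 of 40 in GEM, IGEL and LIGEL (0%, 1.72% and 2.83% of all genes), and voom 11, 15 and 21 (1.76%, 2.78% and 4.05%). Both were added after the data had been seen.

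**Figure D2:**
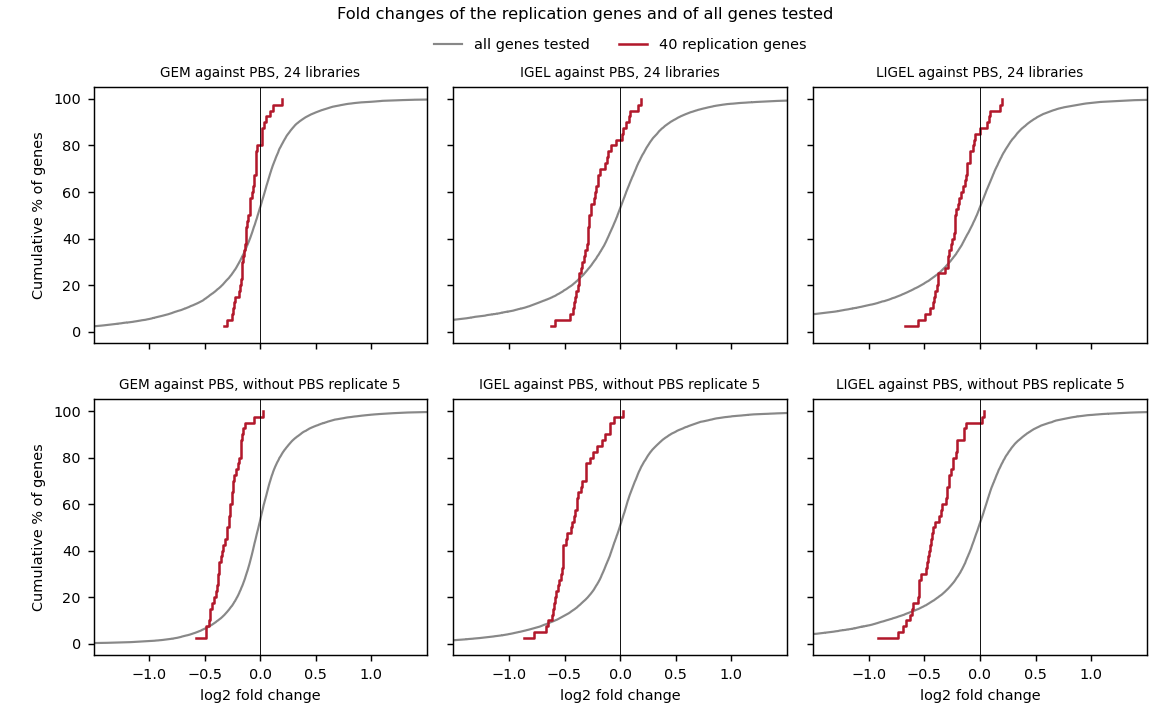
Cumulative share of genes (y axis, percent) against log2 fold change (x axis) for the 40 replication genes and for all genes tested, in each treated group against PBS, with 24 libraries (top) and without PBS replicate 5 (bottom). The replication genes lie to the left of all genes at the middle of each panel, but few of them are among the lowest values of all genes, where the lines cross. Their medians are -0.29, -0.44 and -0.42 in the lower row.

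The separation from PBS rested on 4 control libraries. At least 4 of the 6 PBS libraries lay above every treated library for 4 of 40 genes in GEM (3.16% of all genes), 28 in IGEL (6.77%) and 22 in LIGEL (9.04%). In each such gene the 4 were PBS replicates 2, 3, 4 and 6. They could be no others, because PBS replicates 1 and 5 were the lowest PBS libraries for every replication gene. No replication gene had groups that did not overlap, 0 of 40 in each comparison both with all libraries (0.0208%, 0.114% and 0.369% of all genes lower without overlap in GEM, IGEL and LIGEL) and without PBS replicate 5 (0.125%, 0.8% and 1.33%).

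The direction in GEM depended on the A1 to A3 libraries and on PBS replicate 5. Without the 6 A1 to A3 libraries and without PBS replicate 5, the median was -0.15 in GEM, with 38 of 40 lower (52.3% of all genes). There, 0 stood at an unadjusted p under 0.05 (0.933% of all genes lower at that level). In IGEL the median was -0.42, with 39 lower (51% of all genes) and 28 at that level (5.4%). In LIGEL it was -0.28, with 38 lower (52.3%) and 12 at that level (5.14%). With PBS replicate 5 kept in, the A7 to A24 medians were 0.00 in GEM (20 lower, 20 higher), -0.27 in IGEL and -0.10 in LIGEL. Over all genes they were -0.05, -0.07 and -0.06, with 58.8%, 58.5% and 57.5% of genes lower. EdgeR called 0 of 40 in each of these, and 0% of all genes, and with PBS replicate 5 kept in, 0 stood at an unadjusted p under 0.05 (0.768%, 6.39% and 7.66% of all genes lower in GEM, IGEL and LIGEL). With a term for the A1 to A3 libraries in the fit over all 24, the GEM median turned to 0.06, with 13 of 40 lower and 27 higher. The IGEL and LIGEL medians were -0.22 and -0.09. Over all genes the medians in that fit were -0.01, -0.03 and -0.04 in GEM, IGEL and LIGEL. The mean log2 CPM over the 40 genes had a median of 4.89 in the 6 A1 to A3 libraries and 5.23 in the 12 treated libraries of A7 to A24.

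**Figure D3:**
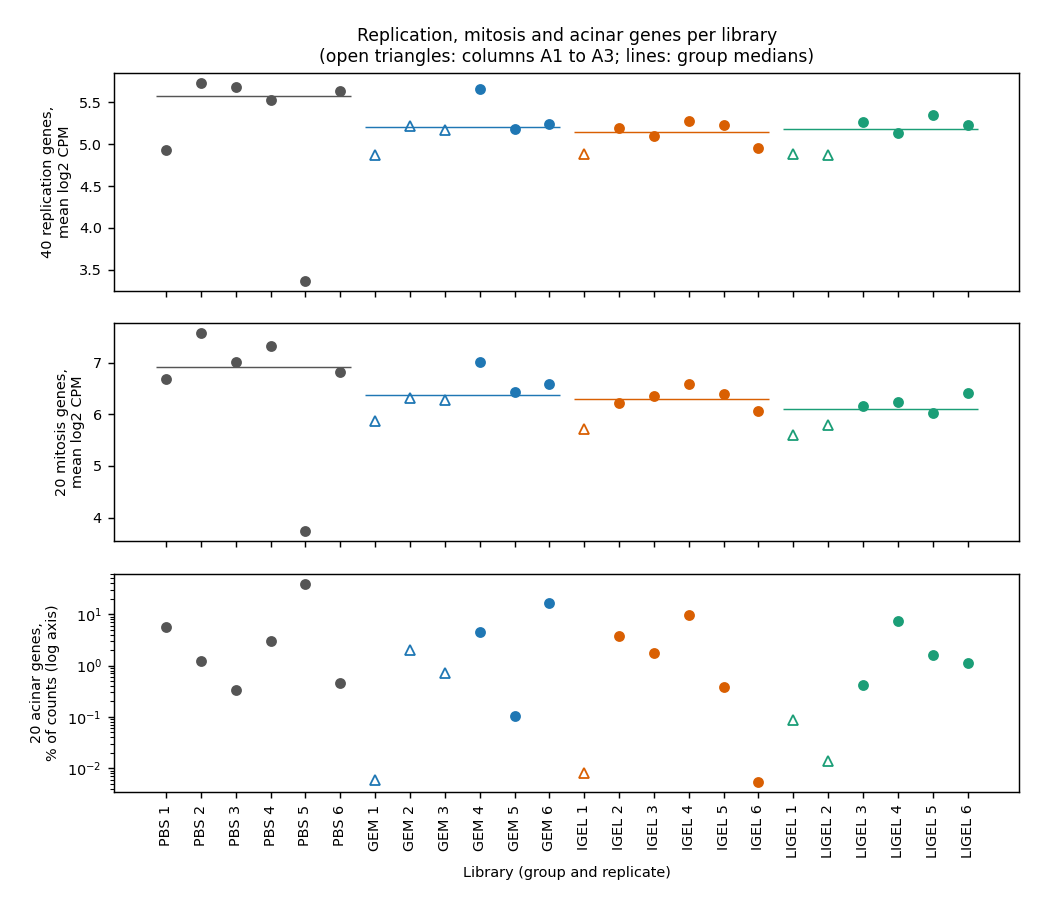
Mean log2 CPM of the 40 replication genes (top) and of 20 mitosis genes (middle) and the share of counts of 20 acinar genes in percent (bottom, log axis), 1 point per library. PBS replicate 5 is lowest in the upper panels and highest in the lower one, at 39.1%, and the open triangles mark the A1 to A3 libraries.

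With all 24 libraries, the gene with the smallest p in each comparison with PBS was Orc1, of origin recognition and licensing. The roles were not tested as groups. Orc1, a subunit of the origin recognition complex that binds ATP, ranged over 2.702 to 12.2 CPM (median 9.33) in PBS. Its range was 5.33 to 8.43 (median 6.45) in GEM, 4.25 to 6.31 (median 5.72) in IGEL and 4.17 to 7.601 (median 5.13) in LIGEL. PBS replicates 2, 3, 4 and 6 lay above every treated library, and PBS replicates 1 and 5 lay among or below the treated ones. The log2 fold change against PBS was -0.29 ± 0.26 (adjusted p = 0.808) in GEM, -0.59 ± 0.26 (adjusted p = 0.3098) in IGEL and -0.56 ± 0.26 (adjusted p = 0.224) in LIGEL (± SE here and below). The other 5 PBS libraries alone gave -0.49 ± 0.20 (adjusted p = 0.882), -0.77 ± 0.20 (adjusted p = 0.108) and -0.74 ± 0.20 (adjusted p = 0.08402). Of the exon bases of Orc1, 10.8% are shared with a gene on the other strand, and the sources used here do not say whether reads were counted by strand.

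Cdc6, the ATPase that helps Cdt1 to load the ring, was the gene most depleted in PBS replicate 5, at 2.43 CPM. The other PBS libraries, replicates 1, 2, 3, 4 and 6, held 19.999, 42.04, 47.2, 33.998 and 36.5 CPM. GEM ranged over 16.8 to 40.4 CPM (median 26.3), IGEL over 18.5 to 29.2 (median 24.5) and LIGEL over 16.7 to 35.4 (median 25.7). The groups overlapped, with GEM replicate 4 above PBS replicates 4 and 6 and below PBS replicates 2 and 3. Gmnn, the inhibitor of Cdt1, ranged over 14.5 to 37.8 CPM (median 25.7) in PBS, 14.2 to 33.2 (median 23.99) in GEM, 15.3 to 27.1 (median 19.4) in IGEL and 14.96 to 25.4 (median 20.3) in LIGEL, and here PBS replicate 5 was not the lowest library. Its log2 fold change was -0.38 ± 0.22 (adjusted p = 0.387) in IGEL and -0.42 ± 0.22 (adjusted p = 0.279) in LIGEL with all libraries, and -0.51 ± 0.20 (adjusted p = 0.307) and -0.55 ± 0.20 (adjusted p = 0.205) without PBS replicate 5. Cdt1 and Orc6, a further subunit of the origin recognition complex, completed the group. Cdt1 gave -0.55 in IGEL and -0.48 in LIGEL without that library, and Orc6 gave -0.25 and -0.21.

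By CPM, not divided by length, the 6 subunits of the MCM2-7 ring were among the most abundant of the 40 genes. None passed the test. Per kilobase of the gene length in the table, 5 of them averaged between 29.3 and 39.6 CPM over the 24 libraries and Mcm2 averaged 15.5. Mcm5 ranged over 14.9 to 195 CPM (median 166) in PBS, 79.03 to 183 (median 110.3) in GEM, 79.3 to 126 (median 103) in IGEL and 80.4 to 122 (median 114) in LIGEL. The 6 PBS values, replicates 1 to 6, were 100.5, 190.4, 195, 181, 14.9 and 152 CPM. All IGEL and LIGEL libraries thus lay below 4 PBS libraries and above PBS replicate 5. With that library left out, the 6 subunits were lower in all 3 treated groups, with medians of -0.38 in GEM, -0.49 in IGEL and -0.44 in LIGEL, and 4 of 6 stood at an unadjusted p under 0.05 in each (3.55%, 7% and 9.97% of all genes were lower at that level). Mcm5 was the furthest from PBS, with -0.66 ± 0.18 (adjusted p = 0.129) in IGEL and -0.62 ± 0.18 (adjusted p = 0.121) in LIGEL, and Mcm6 the nearest, with -0.21 ± 0.11 (adjusted p = 0.469) and -0.14 ± 0.11 (adjusted p = 0.559). Mcm2, Mcm3 and Mcm7 stood between them, at -0.49, -0.52 and -0.48 in IGEL and -0.43, -0.46 and -0.47 in LIGEL, and Mcm4 was nearer to PBS at -0.27 and -0.24. Mcm7 shares 12.6% of its exon bases with other genes, among them the microRNA genes Mir25 and Mir93 on its own strand.

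The shares of the subunits in the ring's summed CPM per kilobase are given as a description, picked after the values were seen and not tested. The length used counts all annotated exon bases of a gene, 6956 for Mcm2 and 3589 to 4666 for the other subunits. It need not be the length of the transcripts present, so shares of different subunits cannot be set against each other exactly. Mcm5 made up 17.2 ± 0.677% of the summed MCM2-7 CPM per kilobase in the 5 PBS libraries other than replicate 5 (mean ± SD), 15.2 ± 2.12% in GEM, 14.5 ± 1.71% in IGEL and 14.5 ± 1.25% in LIGEL (n = 6 each). Mcm6 made up 18.8 ± 1.15% in those PBS libraries, 21.4 ± 1.59% in GEM, 21.8 ± 0.750% in IGEL and 22.1 ± 0.721% in LIGEL. With all 6 PBS libraries these shares were 16.5 ± 1.75% for Mcm5 and 19.3 ± 1.49% for Mcm6. These are shares of messenger RNA and do not measure the proteins.

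Among the factors that activate the helicase, Mcm10 was the furthest below PBS. Mcm10, which binds the assembled helicase at the start of unwinding and is not part of the ring, ranged over 4.66 to 72.5 CPM (median 54.9) in PBS, 19.1 to 61.4 (median 34.05) in GEM, 23.02 to 35.04 (median 31.3) in IGEL and 19.3 to 36.99 (median 31.1) in LIGEL. Every IGEL and LIGEL library lay below PBS replicates 2, 3, 4 and 6, on both sides of PBS replicate 1 at 31.5 CPM, and above PBS replicate 5 at 4.66 CPM. Its log2 fold change with all libraries was -0.32 ± 0.37 (adjusted p = 0.835) in GEM, -0.62 ± 0.37 (adjusted p = 0.403) in IGEL and -0.68 ± 0.37 (adjusted p = 0.297) in LIGEL. Leaving out PBS replicate 5 gave -0.58 ± 0.24 (adjusted p = 0.882), -0.86 ± 0.24 (adjusted p = 0.128) and -0.91 ± 0.24 (adjusted p = 0.0698), the smallest adjusted p of the 40 genes in LIGEL. Cdc45 ranged over 4.53 to 53.4 CPM (median 43.6) in PBS, 24.5 to 49.3 (median 31.7) in GEM, 26.5 to 33.2 (median 30.5) in IGEL and 26.2 to 35.4 (median 28.996) in LIGEL. Its narrow treated ranges lay between PBS replicate 1, at 25.4 CPM, and the lowest of PBS replicates 2, 3, 4 and 6, at 40.4, apart from GEM replicates 1 and 4. The 4 GINS genes were all lower in IGEL and in LIGEL without PBS replicate 5, from -0.30 (Gins4) to -0.56 (Gins1) in IGEL and from -0.28 to -0.63 in LIGEL. Gins2 and Gins3 gave -0.39 and -0.42 in IGEL. Gins2 is uncertain, because 67.3% of its exon bases are shared with Gse1 on the other strand.

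**Figure D4:**
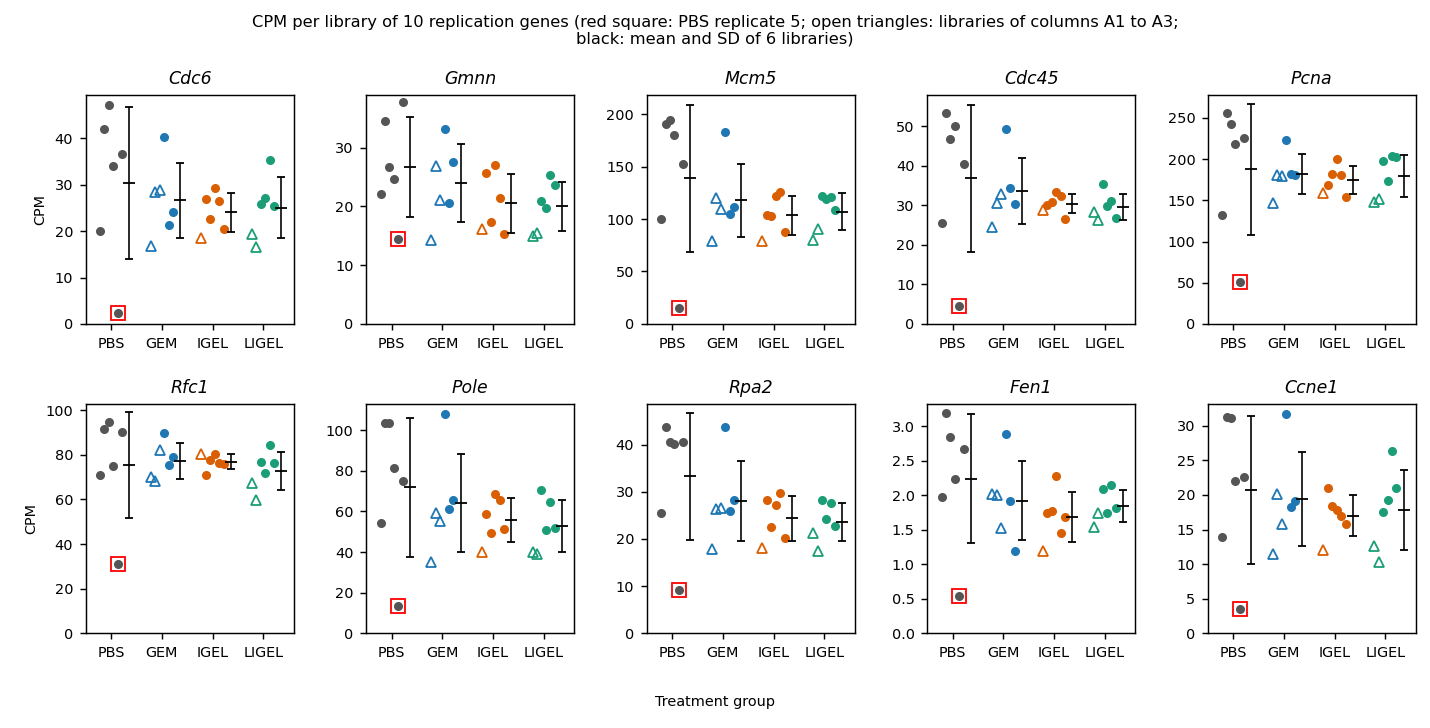
CPM per library (points) of 10 replication genes in the 4 groups, with the mean and SD of the 6 libraries at the right of each group. PBS replicate 5 is boxed and lies below the rest of its group, open triangles mark the A1 to A3 libraries, PBS replicate 1 is the next lowest PBS library, and GEM replicate 4 is the highest GEM library in all 10 panels.

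Pcna, the sliding clamp, had the highest level per length of the 40 genes, 75.4 CPM per kilobase on average. It ranged over 50.3 to 256 CPM (median 222) in PBS, 147 to 223 (median 181) in GEM, 155 to 200.4 (median 175) in IGEL and 149 to 204 (median 186) in LIGEL. The treated medians lay close together, below PBS replicates 2, 3, 4 and 6 and above PBS replicates 1 and 5. The log2 fold change without PBS replicate 5 was -0.25 ± 0.14 (adjusted p = 0.997), -0.31 ± 0.14 (adjusted p = 0.363) and -0.26 ± 0.14 (adjusted p = 0.357) in GEM, IGEL and LIGEL. The table also lists 2 genes named as pseudogenes of Pcna and 1 of Tyms, which can share reads with them.

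The 5 subunits of the clamp loader did not stand equally far from PBS. Rfc1, the large subunit, ranged over 31.1 to 94.6 CPM (median 82.5) in PBS, 68.5 to 89.9 (median 77.02) in GEM, 71.2 to 80.4 (median 77.05) in IGEL and 59.7 to 84.5 (median 74.03) in LIGEL, and the groups overlapped also without PBS replicate 5. Rfc5, a small subunit, ranged over 13.3 to 63.8 CPM (median 56.9) in PBS, 26.3 to 65.4 (median 38.1) in GEM, 26.95 to 46.3 (median 37.97) in IGEL and 28.2 to 42.9 (median 38.3) in LIGEL. Its log2 fold change was -0.26 ± 0.26 (adjusted p = 0.824), -0.41 ± 0.26 (adjusted p = 0.434) and -0.41 ± 0.26 (adjusted p = 0.371) with all libraries. Leaving out PBS replicate 5 gave -0.47 ± 0.18 (adjusted p = 0.882), -0.61 ± 0.18 (adjusted p = 0.172) and -0.60 ± 0.18 (adjusted p = 0.127). Rfc4, also a small subunit, gave -0.32 ± 0.17 (adjusted p = 0.356) in IGEL and -0.29 ± 0.17 (adjusted p = 0.324) in LIGEL with all libraries, and -0.44 ± 0.15 (adjusted p = 0.209) and -0.41 ± 0.15 (adjusted p = 0.188) without that one. Rfc1 gave -0.14 and -0.22, Rfc2 -0.35 and -0.25, and Rfc3 -0.38 and -0.34. Rfc2, Rfc4 and Rfc5 share 15.1%, 12.7% and 10.7% of their exon bases with genes on the other strand.

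Without PBS replicate 5, the only members above PBS were polymerase genes, Pole2 in each treated group and Pola2 in LIGEL. Pole, the catalytic subunit of polymerase epsilon, which copies most of the leading strand, ranged over 13.2 to 104 CPM (median 78.2) in PBS, 35.2 to 108 (median 60.2) in GEM, 40.05 to 68.8 (median 54.9) in IGEL and 39.1 to 70.5 (median 51.4) in LIGEL. The highest value was that of GEM replicate 4, above every PBS library. Pole2, its second subunit, ranged over 4.12 to 14.9 CPM (median 11.8) in PBS, 9.74 to 15.2 (median 12.1) in GEM, 11.2 to 13.4 (median 12.3) in IGEL and 8.19 to 16.3 (median 12.1) in LIGEL, so that the groups overlapped throughout. Pole2 gave 0.20 ± 0.21 (adjusted p = 0.828) in GEM with all libraries and 0.02 ± 0.16 (adjusted p = 0.9999) without PBS replicate 5, while Pole gave -0.17 ± 0.32 (adjusted p = 0.899) and -0.40 ± 0.22 (adjusted p = 0.9999). In LIGEL without that library, Pole gave -0.67 ± 0.22 (adjusted p = 0.166) and Pole2 0.02 ± 0.16 (adjusted p = 0.96998). The log2 ratio of Pole to Pole2 CPM was 2.79 ± 0.20 in the 5 other PBS libraries, 2.32 ± 0.60 in GEM, 2.16 ± 0.25 in IGEL and 2.11 ± 0.33 in LIGEL, a contrast picked after the values were seen and not tested.

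Prim1, the catalytic subunit of primase, ranged over 10.8 to 37.5 CPM (median 27.01) in PBS, 14.9 to 27.4 (median 23.8) in GEM, 14.9 to 26.1 (median 20.2) in IGEL and 12.9 to 26.4 (median 20.1) in LIGEL. Its log2 fold change was -0.18 ± 0.24 (adjusted p = 0.852), -0.37 ± 0.24 (adjusted p = 0.437) and -0.39 ± 0.24 (adjusted p = 0.347), and without PBS replicate 5 -0.36 ± 0.20 (adjusted p = 0.9999), -0.53 ± 0.20 (adjusted p = 0.284) and -0.55 ± 0.20 (adjusted p = 0.201). Prim2, the large subunit that binds it, gave only -0.06 in IGEL and -0.15 in LIGEL without that library. Pola2, the second subunit of polymerase alpha, gave -0.09 and 0.04, and Pola1, the catalytic subunit, -0.35 and -0.43. Polymerase delta, which copies the lagging strand, gave -0.43 and -0.30 for Pold1 and -0.41 and -0.31 for Pold2. None of these passed the test.

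Of the RPA complex, which binds single-stranded DNA, Rpa2 was the furthest from PBS. It ranged over 9.25 to 43.8 CPM (median 40.3) in PBS, 17.9 to 43.6 (median 26.4) in GEM, 18.2 to 29.7 (median 24.9) in IGEL and 17.4 to 28.3 (median 23.6) in LIGEL. PBS replicates 2, 3, 4 and 6 lay close together at 40.03 to 43.8 CPM, above every IGEL and LIGEL library, and GEM replicate 4 was as high. Its log2 fold change was -0.25 ± 0.26 (adjusted p = 0.824), -0.45 ± 0.26 (adjusted p = 0.386) and -0.50 ± 0.26 (adjusted p = 0.275). Against the other 5 PBS libraries it was -0.46 ± 0.18 (adjusted p = 0.882), -0.65 ± 0.18 (adjusted p = 0.134) and -0.69 ± 0.18 (adjusted p = 0.0733). Rpa3, the smallest subunit, ranged over 8.58 to 17.02 CPM (median 13.3) in PBS, 9.66 to 14.2 (median 12.2) in GEM, 8.25 to 12.9 (median 10.4) in IGEL and 9.32 to 13.9 (median 12.5) in LIGEL, with PBS replicate 5 within the span of the treated libraries. With all 24 libraries Rpa3 gave -0.15 ± 0.16 (adjusted p = 0.82902) in GEM and -0.29 ± 0.16 (adjusted p = 0.366) in IGEL. Without PBS replicate 5 it gave -0.25 and -0.39. Rpa1, the largest subunit, gave -0.04 in GEM and -0.12 in IGEL with all 24 libraries.

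Fen1, the flap nuclease, ranged over 0.5404 to 3.19 CPM (median 2.45) in PBS, 1.19 to 2.88 (median 1.96) in GEM, 1.19 to 2.27 (median 1.72) in IGEL and 1.53 to 2.15 (median 1.78) in LIGEL. Its mean was 0.794 CPM per kilobase. Of its exon bases, 84.2% are shared with Tmem258 and Gm10143 on the other strand, so its counts are uncertain and its level cannot be set beside the other genes. The log2 fold change of Fen1 in GEM was -0.23 ± 0.28 (adjusted p = 0.846) with all libraries and -0.44 ± 0.21 (adjusted p = 0.9502) without PBS replicate 5. Lig1, the ligase that seals the fragments and shares 5.79% of its exon bases, ranged over 19.8 to 153 CPM (median 127) in PBS, 64.02 to 147 (median 99.3) in GEM, 68.5 to 111 (median 90.5) in IGEL and 71.1 to 110.2 (median 102) in LIGEL. Against the 5 PBS libraries other than replicate 5, Lig1 gave -0.52 ± 0.17 (adjusted p = 0.207) in IGEL and -0.45 ± 0.17 (adjusted p = 0.21002) in LIGEL.

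Ccne1, a cyclin that activates Cdk2 at the start of S phase, ranged over 3.51 to 31.3 CPM (median 22.3) in PBS, 11.4 to 31.7 (median 18.7) in GEM, 12.02 to 21.003 (median 17.4) in IGEL and 10.3 to 26.4 (median 18.4) in LIGEL. The groups overlapped, and the spread within PBS, GEM and LIGEL was wide. Without PBS replicate 5 it gave -0.51 ± 0.25 (adjusted p = 0.409) in IGEL and -0.44 ± 0.25 (adjusted p = 0.395) in LIGEL. E2f1, an activator of S phase genes, gave -0.16 and -0.13, and Ccne2, the second cyclin E gene, -0.09 and -0.30. Tyms, which makes thymidylate for DNA synthesis, ranged over 12.8 to 49.6 CPM (median 41.9) in PBS, 18.99 to 51.8 (median 33.4) in GEM, 17.9 to 34.1 (median 29.5) in IGEL and 20.9 to 33.4 (median 30.4) in LIGEL. Its log2 fold change in LIGEL was -0.38 ± 0.26 (adjusted p = 0.397) with all libraries and -0.56 ± 0.21 (adjusted p = 0.205) without PBS replicate 5. None of these 4 genes passed the test, and Ccne2 shares 17.4% of its exon bases with Ints8 on the other strand.

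**Figure D5:**
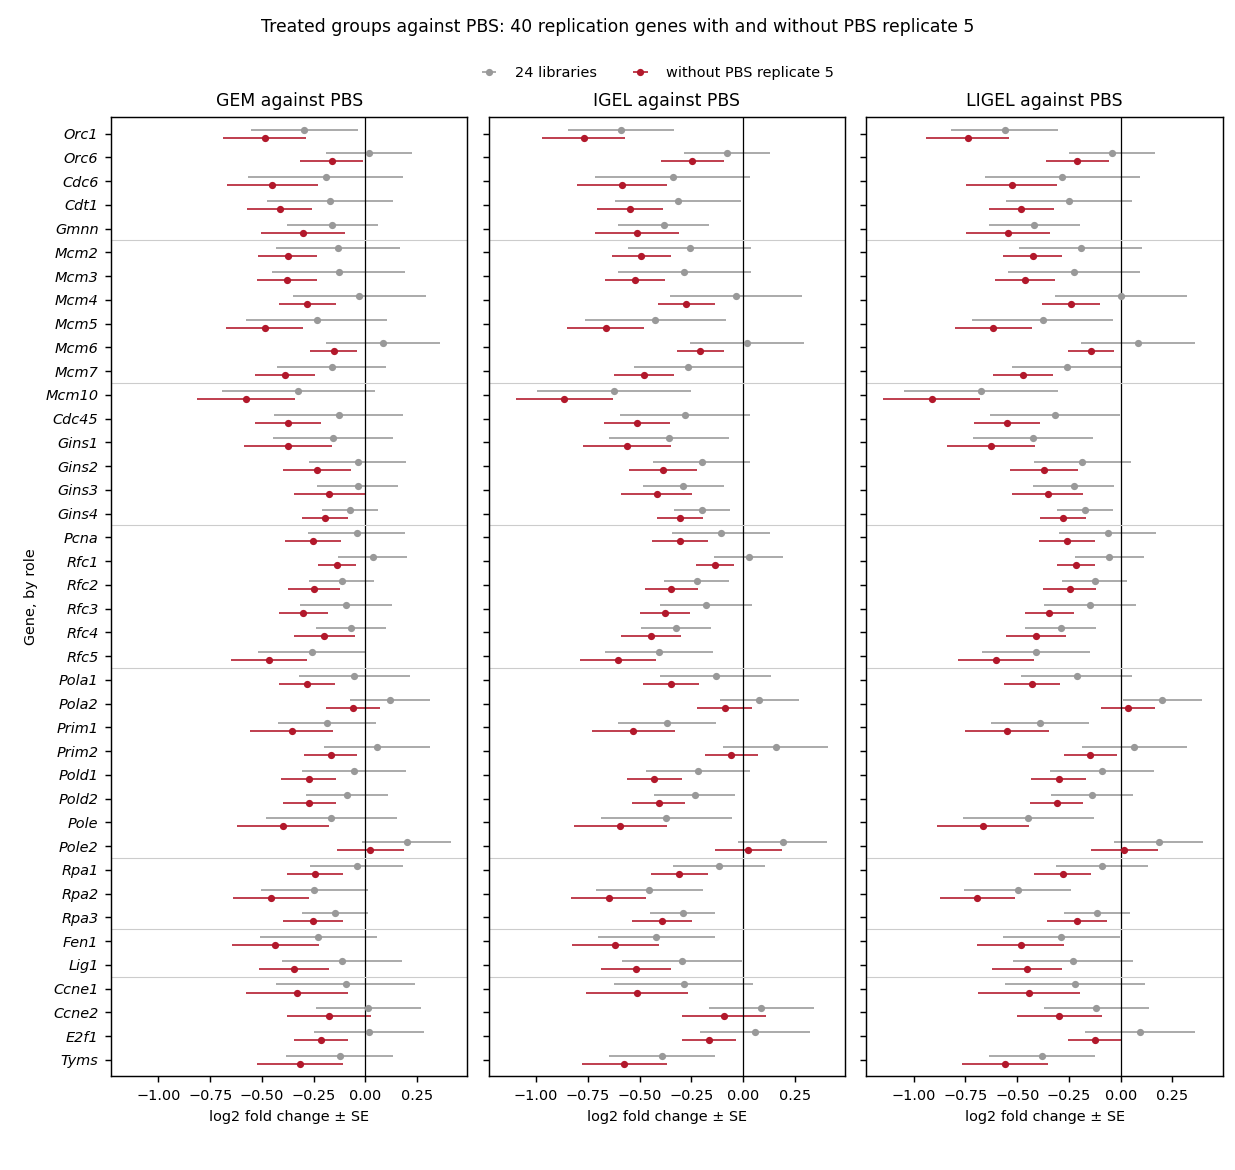
Log2 fold change with its SE (x axis) of each of the 40 genes (rows, by role) in GEM, IGEL and LIGEL against PBS, with 24 libraries (grey) and without PBS replicate 5 (red). Without that library the values move to the left, and Pole2 is the only gene at or above 0 in GEM and in IGEL, joined by Pola2 in LIGEL.

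Between the treated groups the replication genes lay close together, and edgeR, DESeq2 and voom each called 0 of 40 and 0% of all genes in each of the 3 comparisons. EdgeR also found 0 of 40 at an unadjusted p under 0.05 in each (0.706%, 2.33% and 0.831% of all genes were lower at that level in IGEL against GEM, LIGEL against GEM and LIGEL against IGEL). The median log2 fold change was -0.15 in IGEL against GEM with 37 of 40 lower (52.3% of all genes), and -0.09 in LIGEL against GEM with 35 lower (52.9%). In LIGEL against IGEL it was 0.03 with 13 lower (54.9%). The smallest p belonged to Rfc4, Gins3 and Orc1 in IGEL against GEM, with -0.25 ± 0.17, -0.25 ± 0.20 and -0.29 ± 0.26. In LIGEL against GEM it belonged to Rfc4, Gmnn and Orc1, with -0.22 ± 0.17, -0.26 ± 0.22 and -0.27 ± 0.26. In LIGEL against IGEL, Rpa3 gave 0.18 ± 0.16, Ccne2 -0.21 ± 0.25 and Pola2 0.12 ± 0.19. GEM replicate 4 bears on these values: without it the median was -0.02 for IGEL and 0.01 for LIGEL, each set against GEM. Without the A1 to A3 libraries the median was -0.23 in IGEL and -0.10 in LIGEL against GEM. In LIGEL against IGEL it was then 0.13, with 2 of 40 lower (51.8% of all genes) and 38 higher.

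Another 56 genes of replication, in 6 lists outside the 40, were also mostly lower than PBS. With all libraries 46 of 56 were lower in GEM (53.5% of all genes), 49 in IGEL (52.9%) and 47 in LIGEL (53.5%). The medians were -0.10, -0.19 and -0.20. EdgeR called 0, with 3, 4 and 7 lower at an unadjusted p under 0.05, beside 2.89%, 9.25% and 14.2% of all genes. Without PBS replicate 5 the counts were 53 (53.2% of all genes), 52 (50.7%) and 52 (51.9%) lower, with medians of -0.26, -0.35 and -0.36. EdgeR then called 0 in GEM, 1 in IGEL and 5 in LIGEL, all lower, among 0%, 0.0922% and 0.886% of all genes. The gene that fell in IGEL was Rnaseh2c, a subunit of the enzyme that removes RNA from DNA, at -0.45 ± 0.09 (adjusted p = 0.04995). In LIGEL, Ccna2, a cyclin of S phase and mitosis, was at -1.01 ± 0.20 (adjusted p = 0.0172), and Mtbp, which helps origins to fire, at -0.51 ± 0.10 (adjusted p = 0.0183). Mcm8, a helicase related to the MCM2-7 subunits, gave -0.78 ± 0.17 (adjusted p = 0.0267), and Top2a, which untangles copied DNA, -0.89 ± 0.20 (adjusted p = 0.0315). The fifth, Dbf4, which activates the kinase Cdc7 at origins, was named after its value was seen and stood at -0.86 (adjusted p = 0.0287).

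Among the other lists, all 7 genes of nucleotide supply and all 9 firing factors were lower in IGEL and in LIGEL. This held with all libraries (52.9% and 53.5% of all genes lower) and without PBS replicate 5 (50.7% and 51.9%). The nucleotide supply genes had medians of -0.58 and -0.52 without that library. Dctpp1, which breaks down modified cytidine triphosphates, gave -0.71 ± 0.17 (adjusted p = 0.306) in IGEL with all libraries and -0.75 ± 0.17 (adjusted p = 0.0705) without PBS replicate 5. Dtymk, which phosphorylates thymidylate, gave -0.41 ± 0.13 (adjusted p = 0.306) and -0.40 ± 0.13 (adjusted p = 0.1298) in IGEL and LIGEL with all libraries, and Rrm1, the large subunit of ribonucleotide reductase, gave -0.71 ± 0.18 (adjusted p = 0.0597) in LIGEL without PBS replicate 5. Recql4, a helicase of origin firing, gave -0.76 ± 0.23 (adjusted p = 0.124) in LIGEL with all libraries. Pold4, the smallest subunit of polymerase delta, went the other way, with 0.53 ± 0.21 (adjusted p = 0.804) in GEM, 0.69 ± 0.21 (adjusted p = 0.306) in IGEL and 0.76 ± 0.21 (adjusted p = 0.124) in LIGEL. Uhrf1, which carries DNA methylation over to the new strand, gave -0.63 ± 0.17 (adjusted p = 0.128) and -0.68 ± 0.17 (adjusted p = 0.0683) in IGEL and LIGEL without PBS replicate 5, and Chaf1a, of chromatin assembly, -0.41 ± 0.14 (adjusted p = 0.237) and -0.43 ± 0.14 (adjusted p = 0.162). E2f8, a repressor of the E2F family, gave -0.53 ± 0.16 (adjusted p = 0.156) and -0.54 ± 0.16 (adjusted p = 0.1102), and Rb1, the retinoblastoma gene, -0.38 ± 0.20 (adjusted p = 0.271) in LIGEL with all libraries. The E2F and pocket protein genes had medians of -0.15 and -0.26 without PBS replicate 5, and the 7 other origin factors -0.19 and -0.19.

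Mitosis genes had larger negative medians than the replication genes. With all libraries all 20 were lower in each treated group (53.5%, 52.9% and 53.5% of all genes in GEM, IGEL and LIGEL). The medians were -0.44 in GEM, -0.64 in IGEL and -0.83 in LIGEL. EdgeR called 0, with 0, 2 and 17 lower at an unadjusted p under 0.05, beside 2.89%, 9.25% and 14.2% of all genes. Without PBS replicate 5 the medians were -0.69, -0.88 and -1.06. EdgeR called 0, 1 and 20 of 20 (0%, 0.0922% and 0.886% of all genes), beside 0 of the 40 replication genes in each. The difference between the lists was not tested. The mean log2 CPM of the 40 genes minus that of the mitosis genes was -1.58 ± 0.30 in the 5 other PBS libraries, -1.19 ± 0.15 in GEM, -1.12 ± 0.17 in IGEL and -0.92 ± 0.20 in LIGEL (mean ± SD). It was -0.36 in PBS replicate 5, the highest of the 24 libraries.

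Markers of other cell types are given without PBS replicate 5. EdgeR called 0 of the epithelial, fibroblast, T cell and acinar markers, beside 0%, 0.0922% and 0.886% of all genes in GEM, IGEL and LIGEL. Their summed levels overlapped between the groups. Endothelial, myeloid, B cell and islet markers were also measured, and their tests are not described here. Islet markers had a mean log2 CPM of 2.09 ± 1.98 in PBS and 1.88 ± 1.65 in GEM (mean ± SD). It was -0.02 ± 3.21 in IGEL and -0.34 ± 2.80 in LIGEL. At an unadjusted p under 0.05, 3 and 5 of 10 epithelial and 1 and 5 of 10 fibroblast markers were lower in IGEL and LIGEL, beside 7% and 9.97% of all genes. Of 10 markers of duct and tumour epithelium, 9 were lower in IGEL (50.7% of all genes) and 8 in LIGEL (51.9%). Their medians were -1.23 and -1.70. Their summed level ran from 797 to 2050.4 CPM in the 5 PBS libraries, 995 to 1414 in GEM, 570.3 to 1411 in IGEL and 947 to 1120.1 in LIGEL. Of 10 fibroblast markers, 8 were lower in IGEL and 10 in LIGEL, with summed levels of 6782 to 35481 CPM in PBS, 7926 to 22873 in GEM, 3322 to 16872 in IGEL and 5939 to 14325 in LIGEL. All 10 T cell markers had values above 0 in both, with summed levels of 20.7 to 112 CPM in PBS, 33.4 to 66.5 in GEM, 27.2 to 164 in IGEL and 33.3 to 89.0 in LIGEL. Acinar genes took 0.00592% to 16.4% of counts in GEM, 0.00544% to 9.45% in IGEL and 0.0138% to 7.37% in LIGEL. In PBS replicate 1, the low one of the other 5 PBS libraries, both the epithelial and the fibroblast sums were the highest of the 24 libraries. With a covariate for the acinar genes in the fit over all 24 libraries, the replication gene medians were -0.10, -0.26 and -0.21 in GEM, IGEL and LIGEL. Without the covariate they were -0.10, -0.27 and -0.22. The part of these cell types in the values of the replication genes was not otherwise tested.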

How the data were processed

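Bulk RNA was extracted with Trizol and sequenced on an Illumina platform, per the labels' protocols. HISAT2, featureCounts and Subread with build mm10 are named in the submitters' processing notes, without versions. The authors deposited whole-number read counts per gene, not normalized; the strand setting and annotation release are not given in the sources used here. Each library was taken as 1 sample of its labelled group, and none of the 60 pairs of libraries within a group agreed within sampling noise.

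Genes were kept with edgeR's filterByExpr (minimum count 10, minimum total 15), which left 19253 of 54532; the rest held 0.0666% of counts. All 4 groups were fitted together with TMM factors by the edgeR quasi-likelihood test (edgeR 4.0.16, R 4.3.3), with Benjamini-Hochberg adjustment over all genes tested and a threshold of 0.05. CPM values use TMM-scaled library sizes, and log2 CPM a prior count of 2. Totals of 27.1 to 40.5 M limit precision mainly for the lowest genes: the lowest single count of any of the 40 was 8. Alternatives were DESeq2 1.42.0, limma 3.58.1 voom with quality weights, other scalings, no filter, an acinar covariate, the replicate block, the A1 to A3 libraries left out or as a term, and each library left out. The edgeR step was checked on simulated counts, for LIGEL against PBS only. The simulation gave all genes the same dispersion and held no library like PBS replicate 5. DESeq2 and voom were not checked in this way.

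The rule named the 8 of the 40 genes with the smallest p in each comparison with PBS, the 3 with the smallest p in each comparison between treated groups, 10 genes fixed by role and, of each list of other replication genes, those with the smallest p. Values of the remaining members were added after they were seen, to account for each role. The 40 genes, the lists and the promoter words were chosen with earlier results of these data known. Coordinates and promoter sequences are from RefSeq GRCm38.p6, which is the same assembly as mm10, and overlaps from a GENCODE M21 annotation.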

Additional observations from a re-analysis of the deposited data

Results flagged for a closer look

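Values of 10 genes fixed by role and of library summaries were tested for a library far from the rest of its group of 6. Of 48 tests, 12 were past the limit, which chance alone passes in about 1 of 20 groups. Most of the 12 fell on PBS replicate 5. The tests are therefore not independent, and their count cannot be set against that rate. PBS replicate 5 was the low library for 8 genes. Its log2 CPM was 1.32 for Cdc6, 3.90 for Mcm5, 2.20 for Cdc45, 3.73 for Pole, 3.22 for Rpa2, -0.74 for Fen1, 1.84 for Ccne1 and 4.96 for Rfc1. Its mean log2 CPM over the 40 replication genes, 3.37, was also far below the other 5 PBS libraries. The same library had an acinar share of 39.1%, far above its group. The acinar share also stood apart at 16.4% in GEM replicate 6 and at 7.37% in LIGEL replicate 4. It was tested in percent, not on a log scale. The mean log2 CPM of the 40 genes in those libraries, 5.24 and 5.13, was within the range of their groups. The part of acinar transcripts in the low values of PBS replicate 5 was not tested.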

How the results depend on the processing

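With edgeR, 0 of the 40 genes were called in each comparison under every scaling, filter and covariate tried and in each of the 24 fits with a library removed. The other tools called some. Limma voom with quality weights called 11 in IGEL and 15 in LIGEL against PBS (1.98% and 3.81% of all genes). It gave PBS replicates 5 and 1 weights of 0.0778 and 0.249. The next fits left out PBS replicate 5 and were chosen after seeing the data. DESeq2 then called 6 in IGEL and 6 in LIGEL (1.72% and 2.83% of all genes). Voom called 11 in GEM, 15 in IGEL and 21 in LIGEL (1.76%, 2.78% and 4.05%). Leaving out 1 library at a time moved the median log2 fold change of the 40 genes from -0.29 (without PBS replicate 5) to -0.02 (without PBS replicate 2) in GEM against PBS, from -0.44 to -0.16 (without PBS replicate 3) in IGEL and from -0.42 to -0.11 (without PBS replicate 2) in LIGEL. It ranged from -0.19 to -0.02 in IGEL against GEM, from -0.14 to 0.01 in LIGEL against GEM and from -0.02 to 0.08 in LIGEL against IGEL. With a term for the A1 to A3 libraries the GEM median against PBS turned from -0.10 to 0.06. Direction reversed for Rpa3 (0.0094) and Prim1 (0.059) in GEM against PBS with that term, and for Pole2 (-0.085) without PBS replicate 5 and those libraries; the cause was not tested. Of 36 pairs of libraries with the same replicate number, 14 correlated above 0.1, with a median r of -0.06. Of 180 pairs with different numbers, 71 did, with a median r of 0.02. Replicate numbers thus showed no pairing, but these correlations cannot show that pairing was absent. The replicate block gave medians of -0.06, -0.19 and -0.15 against PBS in GEM, IGEL and LIGEL and no call. Depth limits genes with few reads most, and the lowest count of any of the 40 genes in a library was 8.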
